A study of Danio rerio with 3 samples.

Results

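The chemokine genes ccl34b.1 (ENSDARG00000093608) and ccl34b.8 (ENSDARG00000093098) are 2 of the 21915 zebrafish genes listed and 2 of the 4 listed genes of the ccl34b group. Both were picked by name because earlier work on these data had shown ccl34b.8 to be higher, and ccl34b.1 lower, in mutants. Their levels by genotype are therefore given as a description, with no test.

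Chemokines are small secreted proteins that bind G protein-coupled receptors on leukocytes and steer their migration. Zebrafish carry many more CC chemokine genes than mammals, often as tandem copies, and the ccl34b genes are such a fish-specific group. In zebrafish, ccl34b.1 is known as a marker of a population of microglia, the resident macrophages of the brain, and of related tissue macrophages. What ccl34b.8 does is not well known. In the GRCz12tu assembly of RefSeq, 6 genes lie between them, ccl34b.4 among them, and ccl34b.9 follows ccl34b.8. Because these are near relatives, the counting could have divided reads between copies, and both genes' counts are uncertain to that extent.

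The study asked what the phosphatase Shp1, encoded by ptpn6, does in early blood development. Macrophages with the mpeg label were sorted from dissociated whole embryos at 5 days post fertilization, 1 well at a time, into 3 plates of 384 wells, and read by CEL-Seq2, which counts the 3′ ends of transcripts as unique molecular identifiers (UMIs). The groups were ptpn6 mutants and ptpn6 siblings. The labels neither describe the lesion nor divide the siblings by genotype. On sort day 1 they shared a plate, with rows A to H given to siblings and the remaining rows, I to P, to mutants. On sort day 2 each genotype had its own plate, so that genotype and plate cannot be told apart there. Wells with at least 1000 gene UMIs were kept and gave 4 pools. On day 1 there were 131 sibling and 138 mutant wells, and on day 2 there were 199 and 125. The pools held between 1084942 and 2137258 UMIs, and their median well held between 6846 and 9840. The targeted gene ptpn6 itself was seldom counted: day 1 gave 11 UMIs in sibling wells and 5 in mutant wells, and day 2 gave 3 and 0.

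Of the macrophage markers, 25 genes were listed, and they held between 0.626% and 0.763% of the UMIs of a pool. Muscle markers ranged more widely, from 0.0160% in mutants of day 2 to 0.726% in mutants of day 1. The latter was uneven over wells, at 5.49% in those with 3 or more UMIs of ccl34b.8 and 0.131% in those without it. Siblings of day 1 were at 0.135%. Each well stands for 1 sorted cell, wells are not replicates, and the pools are the unit of every comparison below.

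The 2 genes went opposite ways with genotype. In siblings, ccl34b.1 was counted 1145 times on day 1 and 4194 times on day 2. In mutants it was counted 677 and 1344 times. As counts per 1000000 UMIs of the pool (CPM), with exact 95% Poisson intervals that cover counting error only, its day 1 level was 1055 (995 to 1118) in siblings against 507 (469 to 547) in mutants. Its day 2 level was 1962 (1903 to 2023) in siblings against 1058 (1002 to 1116) in mutants.

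Mutants were thus at 0.480 (0.436 to 0.529) of the sibling level on day 1 and at 0.539 (0.506 to 0.573) on day 2. The step between sort days was of the same size, since day 2 stood at 1.86 times day 1 in siblings and 2.09 times in mutants. In order, mutants of day 1 were lowest, siblings of day 1 and mutants of day 2 lay side by side with overlapping intervals, and siblings of day 2 were highest. Siblings averaged 1509 ± 641 CPM (SD, n = 2 pools) and mutants 782 ± 389 CPM (SD, n = 2 pools), so the difference between the genotypes was close to the spread between the days. Fewer cells that express a gene and fewer transcripts per cell cannot be told apart in a pool.

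For ccl34b.8, siblings held 5 UMIs on day 1 and 2 on day 2. Mutants held 71 and 150. With well numbers of the shared plate read row by row, 221 of its 228 UMIs (96.9%) came from mutant wells, which gave 44.7% of all UMIs. On day 1 the sibling level was 4.61 CPM (1.5 to 10.8) and the mutant level 53.2 CPM (41.5 to 67.1). On day 2 they were 0.936 CPM (0.113 to 3.38) and 118 CPM (99.9 to 139).

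In the row by row reading, both sibling pools lay below both mutant pools, and the intervals of the sibling pools overlapped each other. The day 1 ratio that follows rests on that reading too. The mutant level was 11.5 times (4.72 to 36.6) that of siblings on day 1 and 126 times (34.3 to 1051) on day 2, where the sibling count of 2 leaves the ratio very wide. Siblings averaged 2.77 ± 2.60 CPM and mutants 85.6 ± 45.9 CPM (SD, n = 2 pools each). The count of ccl34b.1 was 229 times that of ccl34b.8 in siblings of day 1 and 2097 times in siblings of day 2, against 9.54 and 8.96 times in mutants.

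**Figure D1:**
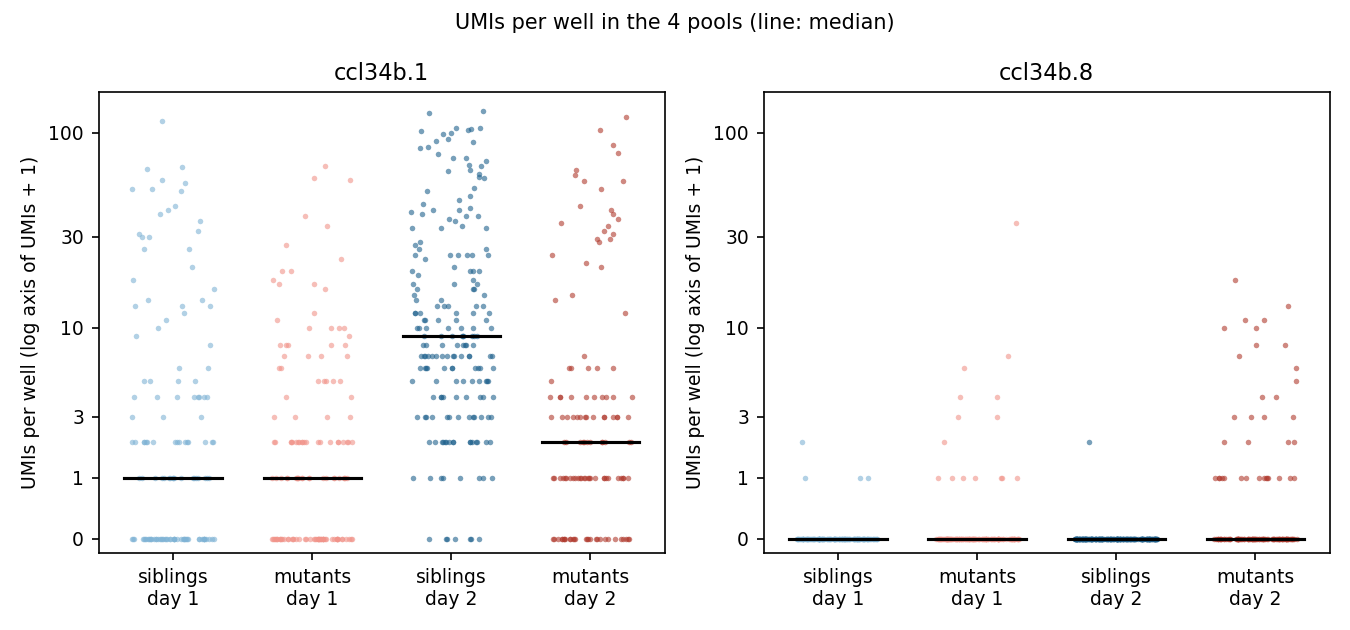
UMIs of ccl34b.1 (left) and ccl34b.8 (right) in each well kept, by pool, on a log axis of UMIs + 1; points are wells with random sideways shift and the black line is the median. The ccl34b.1 median is 9 UMIs in siblings of day 2 and 1 or 2 elsewhere. With well numbers read row by row, no sibling well holds more than 2 UMIs of ccl34b.8.

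The 2 genes were also spread differently over the wells. On day 1, a UMI of ccl34b.1 was present in 82 of 131 sibling wells (62.6%) against 86 of 138 mutant wells (62.3%). The day 2 shares were 192 of 199 (96.5%) in siblings and 97 of 125 (77.6%) in mutants. On day 1 the share was therefore nearly equal in both genotypes, while the wells that held the gene had medians of 4 UMIs (siblings) and 2 UMIs (mutants). On day 1, 29 sibling wells and 19 mutant wells held 10 or more UMIs, and on day 2, 94 and 26 did. The best well of a pool held between 68 and 128 of its UMIs.

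A share of wells with a UMI depends on depth. With each well thinned to 1000 UMIs, the share of wells with ccl34b.1 on day 1 was 32.8% in siblings against 23.9% in mutants, and on day 2 it was 64.3% against 32.8%. Wells under 1000 UMIs, which were left out, held ccl34b.1 at 745, 694, 2064 and 818 CPM in siblings and mutants of day 1 and siblings and mutants of day 2. These levels were of the order of those in the wells kept. Whether each UMI came from the well's own cell was not tested.

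In contrast, ccl34b.8 was found in few wells. On day 1 it was present in 4 of 131 sibling wells (3.05%) against 15 of 138 mutant wells (10.9%), and on day 2 in 1 of 199 (0.503%) against 36 of 125 (28.8%). The day 1 difference in this share was lost with well numbers read column by column, at 9 of 127 sibling wells (7.09%) against 10 of 142 mutant wells (7.04%). With well numbers read row by row, no sibling well held 3 or more UMIs, whereas 7 mutant wells of day 1 and 17 of day 2 did. Read column by column, some of these day 1 wells, those with 7 and 6 UMIs among them, fall to siblings. The top mutant wells of day 1 held 35, 7 and 6 UMIs, and those of day 2 held 18, 13 and 11.

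One well thus carried 35 of the 71 UMIs of mutants on day 1, and without it their level was 27.6 CPM rather than 53.2. On day 2 the counts were less concentrated, and leaving out the top well moved the level from 118 to 105 CPM. After thinning to 1000 UMIs, the day 1 shares were 1.53% in siblings against 3.62% in mutants, and the day 2 shares were 0 against 8.0%. Among wells under 1000 UMIs, 6 of 259 (2.32%) mutant wells of day 2 held 7 UMIs of it, and 1 sibling well of day 1 held 1.

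Across all genes, edgeR's quasi-likelihood test on the 4 pools called 0 of 8177 genes by genotype (0%) at a Benjamini-Hochberg adjusted p of 0.05, while 274 had an unadjusted p under 0.05 and DESeq2 called 24. A block for sort day in the same test gave 2 called genes (0.0245%), si:dkey-119g10.4, with a log2 fold of 4.30 (SE 0.43, adjusted p = 0.021), and 1 gene without a symbol. In the fit without the block, the log2 fold of mutants over siblings was 4.96 (SE 0.73) for ccl34b.8 and -1.14 (SE 0.41) for ccl34b.1, and with the block it was 4.93 (SE 0.74) and -1.14 (SE 0.17). Both kept their sign under every alternative run. The size leaned on how the wells of the shared plate were assigned: with numbers read column by column in place of row by row, the log2 folds were 2.95 and -0.66. In that reading, day 1 mutants kept the well with 35 UMIs of ccl34b.8, while the wells with 7 and 6 went to siblings. Without siblings of day 2, ccl34b.1 was at -0.57 and ccl34b.8 at 4.05. Without mutants of day 1 ccl34b.1 was at -0.70, without mutants of day 2 at -1.78, and without siblings of day 1 ccl34b.8 was at 6.19.

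Among 25 chemokine ligand genes listed, which held 18865 UMIs together, ccl34b.1 ranked second by UMIs with 7360, after ccl35.2, another CC chemokine, with 10224. In this order ccl34b.8 came next with 228. These are counts of 3′ ends, so no correction for transcript length was made. The other ccl34b genes were almost absent, with 8 UMIs of ccl34b.4 and 4 of ccl34b.9 over all pools. By genotype, 0 of the 10 other ligands and 0 of the 12 receptors tested were called (background 0%). The largest ligand fold among these was that of cxcl12, the ligand of cxcr4, at a log2 fold of 5.33 (SE 1.06, edgeR adjusted p = 0.67), from 2 sibling and 19 mutant UMIs of day 1 and 1 sibling and 105 mutant UMIs of day 2. A single mutant well of day 2 held 46 of the UMIs of cxcl12. The log2 fold of ccl35.2 was -0.43 (SE 0.31).

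The genes most like ccl34b.1 over the wells were the apolipoprotein genes apoeb and apoc1, which zebrafish microglia express strongly. Over 593 wells, the Pearson correlation of ccl34b.1 on log2(UMIs per 10000 + 1), centred within each pool, was 0.69 with apoc1 and 0.59 with apoeb, the highest 2 of 6832 genes ranked. Next came lgals3bp.1, a galectin-binding protein, at 0.56, cmklr1, a chemoattractant receptor, at 0.50, and atp13a3 and slc7a7, both transporters, at 0.49. In single pools the value for apoc1 ran from 0.64 to 0.72. These correlations describe wells that share plates, libraries and differences in depth.

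Wells were then divided by the share of their UMIs from apoeb and apoc1, at 0.2% and 1%, limits set after the values had been seen. Both genes had just been found the most like ccl34b.1 over the same wells. A rise of ccl34b.1 across the classes therefore largely restates that correlation. In siblings of day 1, ccl34b.1 stood at 335 CPM in the 109 wells with the lowest share, 3854 in the 12 between and 5084 in the 10 with the highest. In siblings of day 2 it stood at 1008, 4871 and 7598 CPM over 155, 21 and 23 wells. The same order of levels was found in mutants, with 188, 2002 and 4525 CPM on day 1 over 115, 15 and 8 wells, and 388, 4659 and 4764 on day 2 over 103, 11 and 11 wells. Much of the count nevertheless lay in wells with little apolipoprotein, since the lowest class held 2698 of the 7360 UMIs of ccl34b.1, the middle 1966 and the highest 2696. Of the wells with 10 or more UMIs of ccl34b.1, 9 of 29 in siblings and 5 of 19 in mutants of day 1 were in the lowest class. In siblings of day 2 the number was 53 of 94, and in mutants of day 2 it was 7 of 26.

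On day 1 the highest class took 7.63% of sibling wells against 5.80% of mutant wells, and on day 2 it took 11.6% against 8.80%. The genotype difference in ccl34b.1 was also present among wells with little apolipoprotein: mutants there were at 0.561 (0.470 to 0.670) of the sibling level on day 1 and at 0.385 (0.345 to 0.429) on day 2. In the highest class the ratios were 0.890 (0.763 to 1.04) and 0.627 (0.564 to 0.696), and between the limits 0.520 (0.434 to 0.621) and 0.956 (0.853 to 1.07). Thus the interval included 1 in 1 class on each day, and not in the same class. These intervals cover counting error only, not the spread between wells. As the limits are not gaps in the data, 61 wells lay between 0.1% and 0.4% and 64 between 0.5% and 2%.

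**Figure D2:**
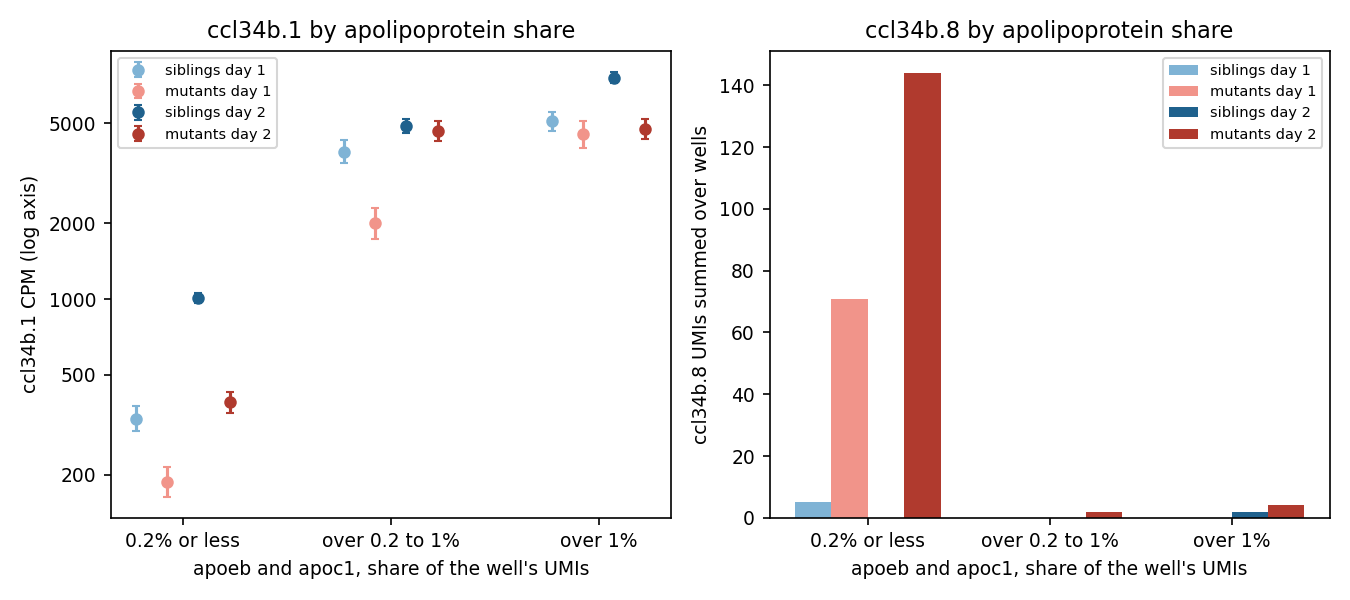
Level of ccl34b.1 in CPM on a log axis (left; points are pools, bars exact 95% Poisson intervals) and UMIs of ccl34b.8 summed over wells (right), by the share of a well's UMIs from apoeb and apoc1. The ccl34b.1 level rises from the lowest to the middle class in all 4 pools, while 220 of the 228 UMIs of ccl34b.8 lie in the lowest class. That class holds 482 of the 593 wells. The rise largely restates the correlation of ccl34b.1 with apoeb and apoc1 over the same wells.

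By sum, the UMIs of ccl34b.8 lay almost wholly outside the apolipoprotein-rich wells. The 482 wells of the lowest class held 220 of its 228 UMIs, the 59 wells between held 2 and the 52 wells of the highest class held 6. By wells, the classes of mutants on day 2 were closer. From lowest to highest, 31 of 103, 2 of 11 and 3 of 11 wells held the gene. In mutants of day 1, 15 of 115, 0 of 15 and 0 of 8 did. In the 24 mutant wells with 3 or more UMIs of ccl34b.8, the share of apoeb and apoc1 ran from 0 to 0.0790%, with a median of 0.0321%. A low share was common, however, since it was also found in 172 of the 212 mutant wells with no UMI of ccl34b.8. The median share in those 212 wells was 0.0345%.

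The 2 genes shared wells about as often as their separate shares give. In mutants of day 1, 11 of the 15 wells with ccl34b.8 also held ccl34b.1, where the product of the 2 shares gives 9.35. In mutants of day 2, 28 of 36 did, where it gives 27.9. Wells with ccl34b.8 alone numbered 4 and 8. The product takes no account of depth, and in both mutant pools wells with either gene were deeper than wells without it. In siblings, all 4 wells of day 1 and the 1 well of day 2 with ccl34b.8 also held ccl34b.1, where the shares give 2.50 and 0.965. By amount, ccl34b.1 was present in 17 of the 24 mutant wells with 3 or more UMIs of ccl34b.8 (70.8%), in 22 of the 27 with 1 or 2 (81.5%) and in 144 of the 212 with none (67.9%), and the differences were not tested. After thinning to 1000 UMIs, 0 wells of mutants on day 1 and 2 on day 2 held both, where the shares give 1.2 and 3.28. These counts rest on a single random draw.

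Summed over wells, ccl34b.1 had a lower level in mutant wells with ccl34b.8 than in those without. In mutants of day 1 it stood at 164 CPM (118 to 220) in wells with ccl34b.8 and at 591 CPM (546 to 639) in wells without. On day 2 the levels were 577 CPM (510 to 650) and 1340 CPM (1261 to 1422). In wells with 3 or more UMIs of ccl34b.8 it stood at 94.5 CPM on day 1 and 241 on day 2. The median well did not follow the sum on day 1, at 180 CPM with ccl34b.8 and 109 without, and on day 2 the medians were 187 and 254 CPM. In siblings, where 4 and 1 wells held ccl34b.8, the summed levels were 623 CPM with it and 1069 without on day 1, but 6133 and 1950 on day 2.

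Few wells with much ccl34b.1 were among those with much ccl34b.8. Of the 24 wells, 1, with 21 UMIs, held 10 or more UMIs of ccl34b.1, against 39 of the 212 mutant wells without ccl34b.8. Among the 27 mutant wells with 1 or 2 UMIs of ccl34b.8, 5 did. These counts do not compare like wells. All 24 were in the lowest apolipoprotein class, against 172 of the 212. That class held only 5 of the 19 mutant wells of day 1 with 10 or more UMIs of ccl34b.1, and 7 of the 26 of day 2. The medians over all wells were 2 UMIs in the 24, 4 in the 27 and 1 in the 212. The correlation between the 2 genes over 593 wells was -0.04, and within single pools it ran from -0.15 in mutants of day 2 to 0.10 in siblings of day 2. Within the lowest apolipoprotein class the gap was smaller on day 1, with ccl34b.1 at 164 CPM (118 to 220) in mutant wells with ccl34b.8 and 195 CPM (167 to 225) in those without, and overlapping intervals. On day 2 it was 217 CPM (175 to 266) against 500 CPM (447 to 557). Much of the latter came from a few wells, since single wells held 57, 57, 39, 29, 28 and 15 of its 325 UMIs. In the day 2 wells with ccl34b.8 the top well held 21 of 92. The counting intervals do not cover this spread between wells.

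**Figure D3:**
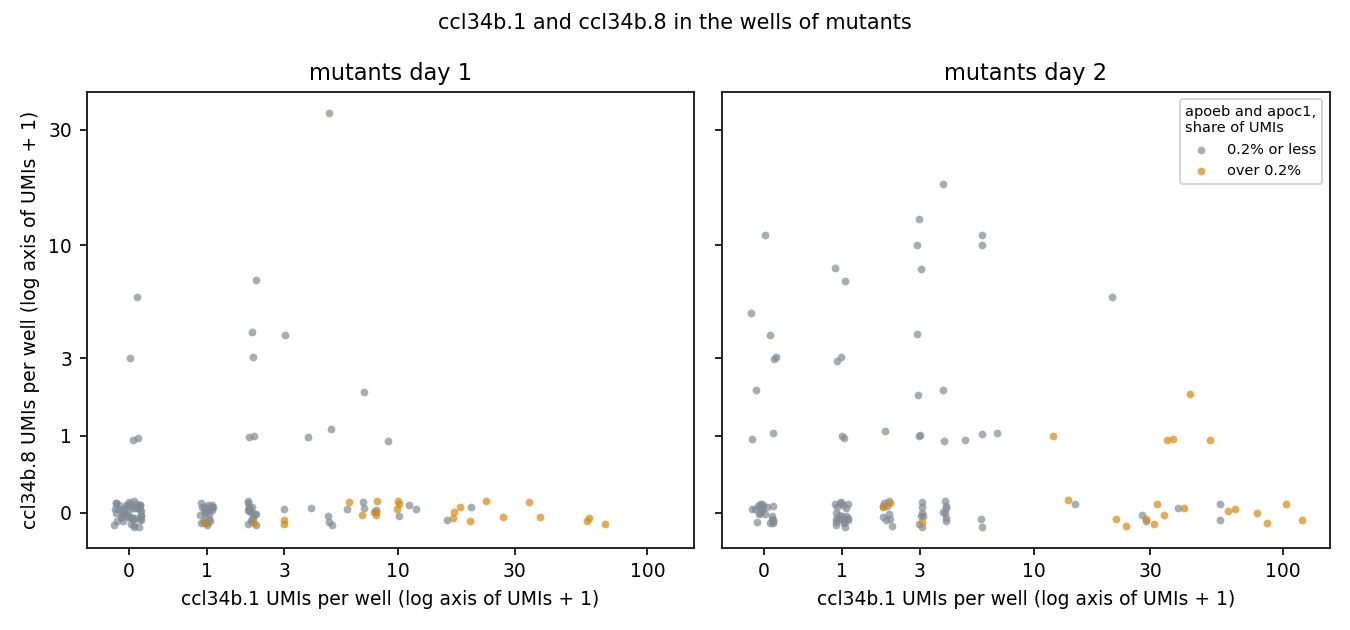
UMIs of ccl34b.8 against UMIs of ccl34b.1 in each mutant well of day 1 (left) and day 2 (right), on log axes of UMIs + 1 with random shift; orange wells have more than 0.2% of their UMIs from apoeb and apoc1. All 24 wells with 3 or more UMIs of ccl34b.8 are grey, and 1 of them holds 10 or more UMIs of ccl34b.1.

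Other genes were then compared between wells with and without ccl34b.1, summed within each of the 4 pools and paired by pool. Of 6352 genes tested, 190 differed (2.99%), with 110 higher (1.73%) and 80 lower (1.26%) in wells with ccl34b.1, by edgeR's quasi-likelihood test at an adjusted p of 0.05. Wells with the gene were deeper in every pool, with medians of 8157, 9282, 9807 and 10917 UMIs against 5046, 6148, 2208 and 4245 in wells without, and siblings of day 2 had only 7 wells without it. The wells were therefore also divided by whether ccl34b.1 was found after thinning to 1000 UMIs, which evens out the depth of the division. That division called 865 of 7695 genes (11.2%), with 6.56% higher and 4.68% lower. It shared 137 of the 190 calls, 123 of them in the same direction.

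The apolipoprotein gene apoeb was higher by a log2 fold of 3.75 (SE 0.37, edgeR adjusted p = 9.4e-21), and it was at 3.65 after thinning. In siblings of day 1 it stood at 747 CPM in wells with ccl34b.1 and 23.4 in wells without, and in mutants of day 1 at 338 and 40.3 CPM. On day 2 it stood at 636 CPM and, from 4 UMIs in 7 wells, 164 CPM in siblings, and at 783 and 57.9 CPM in mutants. Its partner apoc1 was higher by 2.81 (SE 0.30, adjusted p = 3.6e-18) and by 3.81 after thinning.

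Also higher were gdpd3b, of the glycerophosphodiester phosphodiesterase family (3.47), g0s2, an inhibitor of triglyceride lipolysis (3.13), the complement gene c7b (2.43) and the lysosomal protease gene ctsl.1 (2.22), and all of these remained called after thinning, at 2.40, 3.67, 1.91 and 1.87. The named genes bzw2 (3.02) and irf8, a transcription factor that macrophages need to develop (2.59) kept their sign after thinning, at 1.64 and 0.70, but were not called there (adjusted p = 0.053 and 0.21). The sodium pump gene atp1a3a (3.62) and the muscle myosin gene myhz1.2 (3.20) turned to -1.49 and -1.80 after thinning, where atp1a3a was called as lower (adjusted p = 0.024). In 1 well lay 86.1% of the UMIs of myhz1.2, and 37.9% of those of atp1a3a lay in the well with 152505 UMIs.

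All 10 genes named as lower had a negative log2 fold after thinning too, and 7 were called there. They included bbc3, a pro-apoptotic gene (-3.13, then -1.79), the claudin genes cldnb (-2.78, then -3.32) and cldn7b (-1.75, then -2.93), spint2, a protease inhibitor (-2.05, then -2.27), and icn, a calcium-binding S100 family gene (-1.62, then -2.24). The other called ones were s100v1 (-1.76, then -4.93) and sparc, a matrix protein gene (-1.70, then -2.56). Not called after thinning were si:ch211-195h23.3 (-2.54, then -1.60), malt2 (-1.66, then -0.72) and col4a1, a basement membrane collagen gene (-1.65, then -1.35). In wells of 5000 or more UMIs, where siblings of day 2 did not enter because only 2 of their wells lacked ccl34b.1, the edgeR call held for bbc3 and icn (adjusted p = 0.023 each) but not for cldnb (0.15), spint2 (0.32), s100v1 (0.36), cldn7b (0.062), sparc (0.23) or malt2 (0.061), and the other 2 were not tested there. Among the genes named as higher, irf8 was not called in those wells (adjusted p = 0.075) and bzw2 was not tested. In wells with a macrophage marker, s100v1 (adjusted p = 0.057), si:ch211-195h23.3 (0.31) and col4a1 (0.34) were not called.

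**Figure D4:**
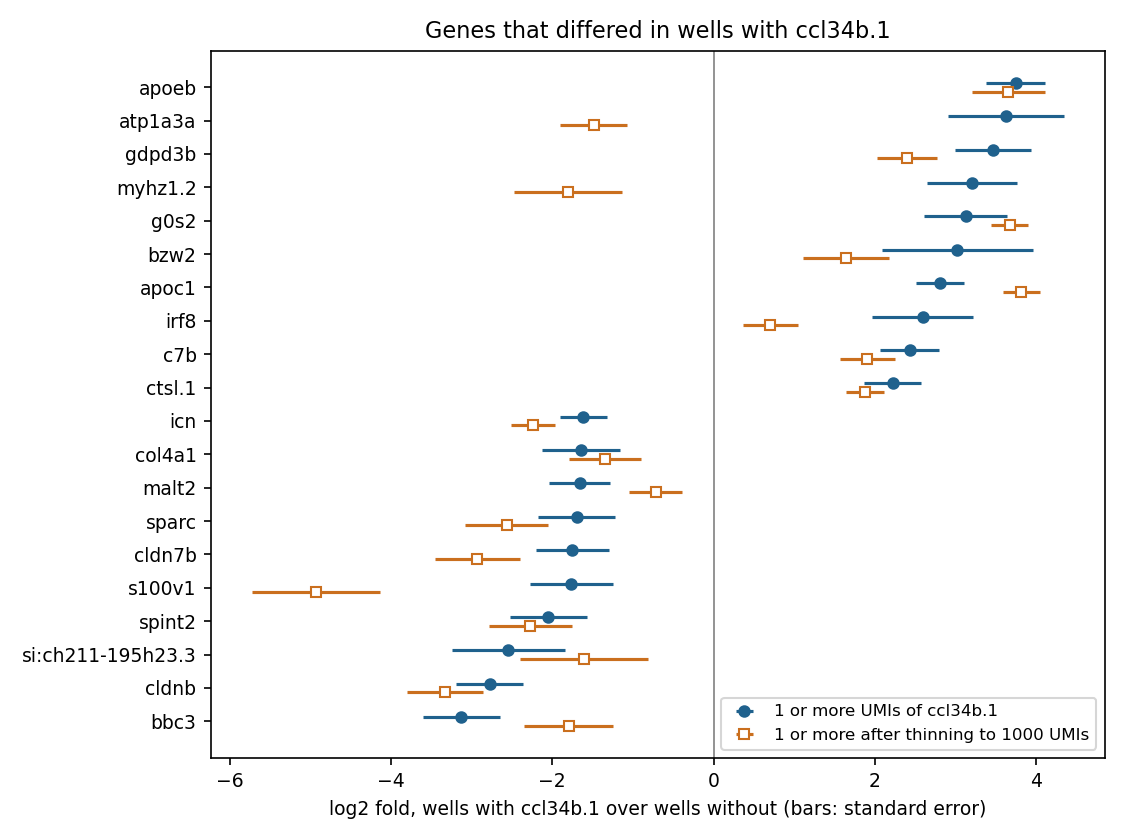
Log2 fold of the named genes in wells with ccl34b.1 over wells without, paired over 4 pools, with standard errors; blue circles divide wells by any UMI of ccl34b.1 and orange squares by a UMI after thinning to 1000. Of the 10 higher genes, atp1a3a and myhz1.2 change sign between the 2 divisions, and the 10 lower genes stay below 0.

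The list counts that follow stand against the shares over all genes, 1.73% higher and 1.26% lower in the division by any UMI, and 6.56% higher and 4.68% lower after thinning. By list, 3 of the 9 microglia markers tested were higher in wells with ccl34b.1 (apoeb, apoc1 and havcr1, a phagocytic receptor gene) and none lower, with a median log2 fold of 0.83 against 0.04 over all genes. After thinning 7 of 10 were higher, among them p2ry12, a purinergic receptor gene of microglia, at 2.66 (SE 0.63, adjusted p = 0.0098), and the median was 1.19 against -0.08. The 2 complement genes c1qa and c1qb of this list were not called, at log2 folds of -0.10 (SE 0.61) for c1qa and 0.60 (SE 0.64) for c1qb. Of the lysosome and phagocytosis genes, 4 of 24 were higher, namely ctsd, ctsl.1, ctsz and lgmn, all genes of lysosomal proteases. After thinning 15 of 25 were higher and 1 lower. Macrophage markers had 1 of 20 higher, 1 of the genes named mfap4, and 9 of 21 after thinning, while the share of all genes called higher rose from 1.73% to 6.56%. Among lipid handling genes 4 of 10 were higher, apoeb and apoc1 again, plin2, which coats lipid droplets (1.92, SE 0.35), and fabp7, a fatty acid carrier (4.37, SE 0.99). After thinning 4 of 10 were higher too, with abca1b in the place of fabp7. The fold of fabp7 was larger than that of any gene named as higher, but fabp7 failed the rule for named genes on UMIs or direction.

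Lower in wells with ccl34b.1 were 3 of 4 markers of metaphocytes, macrophage-like cells of skin origin (icn, grna.2 and epcam), and all 4 after thinning. Both lymphoid markers tested were lower, the chemokine receptor gene ccr9 at -0.98 (SE 0.28, adjusted p = 0.027) and the transcription factor gene eomes at -1.53 (SE 0.38, adjusted p = 0.0061). Among the other chemokine genes, 1 of 7 ligands was lower, ccl38a.5, at -1.90 (SE 0.57, adjusted p = 0.033), and 1 of 13 receptors, ccr9, where 1.26% of all genes were lower. The fold of ccl38a.5 was beyond that of some genes named as lower, but ccl38a.5 failed the rule for named genes on UMIs or direction. After thinning 1 of 10 ligands was higher, ccl35.2, at 0.81 (SE 0.15, adjusted p = 0.0013), and 1 lower, cxcl14. Of 12 receptors, ccr12a and cxcr3.3 were then higher and cxcr4, ccr9 and ccr8 lower. Metaphocyte markers held 0.0861%, 0.180%, 0.0584% and 0.0429% of the UMIs in wells with ccl34b.1 and 0.169%, 0.283%, 0.509% and 0.0758% in wells without, in siblings and mutants of day 1 and siblings and mutants of day 2. The 0.509% in siblings of day 2 came from only 7 wells. After thinning, 3 of 3 mesenchyme and 3 of 4 neuron markers were lower too. The part of these cells in the calls was not tested.

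The osteoclast-type list had 3 of 5 genes higher, acp5, ocstamp and ctsl.1, and 2 after thinning. Of 11 inflammatory mediator genes 3 were higher, acod1, nfkbiaa and tnfaip3, all induced by inflammatory signals, with log2 folds of 0.93, 0.90 and 0.92, and the same 3 were called after thinning together with nfkbie. From 18 genes of the oxidative stress and amino acid response 3 were higher, slc7a11, slc3a2a and sqstm1. After thinning 5 of 18 were higher, slc3a2a and sqstm1 among them but not slc7a11, and prdx1 was lower, at -1.97 (SE 0.25). Stress and dissociation genes had 0 of 13 called, and neutrophil markers 0 of 6, with 3 higher and 2 lower, respectively, after thinning. The 0 of 6 muscle markers called became 1 lower of 7. Of the alternative and repair list, spp1 was higher and fn1 (ENSDARG00000006526) lower out of 13. Both had folds large enough to be named, but neither met the rule for named genes on UMIs and direction. After thinning neither was called, while stab1 and mmp14 were higher and another gene named fn1 (ENSDARG00000019815) was lower out of 12.

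Wells with ccl34b.8 could be compared with wells without it in the 2 mutant pools only, 15 against 123 wells on day 1 and 36 against 89 on day 2. Of 5662 genes, 11 differed (0.194%), with 7 higher (0.124%) and 4 lower (0.0706%), by edgeR's quasi-likelihood test. DESeq2 also called 11, with 4 higher and 7 lower, and 5 genes were in both sets. Among the higher ones, myhz1.2 (log2 fold 5.81), si:ch73-367p23.2 (4.97) and si:ch211-255p10.3 (4.85), rested on single wells: 1 well with 62515 UMIs held 92.4% of the UMIs of myhz1.2 and 86.7% of those of si:ch73-367p23.2, and 114 of the 131 UMIs of si:ch211-255p10.3 came from 1 well. Likewise 566 of the 756 UMIs of the neutrophil lysozyme gene lyz (3.21) came from 1 well. Muscle markers held 3.15% of the UMIs of ccl34b.8 wells in mutants of day 1 and 0.131% of those without, against 0.0130% and 0.0177% on day 2. Without the well that held most ccl34b.8 in each pool, 1 gene was called, myhz1.2. The day 1 well left out there was the one with 35 UMIs of ccl34b.8, so the well with 62515 UMIs stayed in.

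The gene called both with and without thinning in the upward direction was si:dkey-6n3.3, with a log2 fold of 1.46 (SE 0.21, adjusted p = 0.043) and 1.98 (SE 0.19, adjusted p = 0.0036) after thinning. Thinning left 5 and 10 wells with ccl34b.8, and it did not even out depth, since these had medians of 14889 and 13034.5 UMIs against 7877 and 9779 in wells without. The gene stood at 2019 CPM in wells with ccl34b.8 and 625 without on day 1, and at 8465 and 3705 CPM on day 2. Downward, grna.2, a progranulin-like gene of metaphocytes, was called both ways, at -3.52 (SE 0.48, adjusted p = 0.043) and -3.36 (SE 0.50, adjusted p = 0.031). It stood at 60.8 and 1604 CPM on day 1 and at 55.3 and 298 CPM on day 2. The chemokine gene cxcl12 was lower as well, at -5.01 (SE 0.74, adjusted p = 0.048), with 0 of 19 UMIs in ccl34b.8 wells on day 1 and 2 of 105 on day 2, but was not called after thinning (-2.52, adjusted p = 0.76). A single mutant well of day 2, with 3931 UMIs in all, held 46 of the 124 UMIs of cxcl12. The remaining called genes had no symbol. Both si:dkey-6n3.3 and grna.2 were also called in wells of 5000 or more UMIs (adjusted p = 0.0022 and 0.00010) and in wells with a macrophage marker (adjusted p = 0.0023 and 0.00086). Neither was called without the top well of each pool, in wells of 2000 or more UMIs, with the deposited values, or with wells of 3 or more UMIs of ccl34b.8 against wells with none, where the log2 folds were 1.79 (SE 0.21) and -3.12 (SE 0.59). The last division called 3 genes: myhz1.2, si:ch73-367p23.2 and apoeb, which was lower by a log2 fold of -4.12 (SE 0.38, edgeR adjusted p = 0.041). For apoeb, wells with ccl34b.8 held 3 UMIs on day 1 and 10 on day 2, against 334 and 693 in wells without. A single well held 284 of the 1040 UMIs.

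Of 9 microglia, 19 macrophage and 23 lysosome genes tested 0 were called in wells with ccl34b.8, where 0.194% of all genes were called and lists of this size would hold few or none at that share. They had medians of -0.33, -0.08 and -0.30 against -0.02 over all genes. Beside grna.2 in the metaphocyte list, lyz in the neutrophil list and cxcl12 among the ligands, no list member was called. After thinning, grna.2 and hsp70l, a heat shock gene, were called and both were lower (background 0.0533% higher and 0.142% lower, 0.195% in all). The number of called genes was 11 with and without thinning, but 2 genes were in both sets. Called only after thinning was si:dkey-119g10.4, higher at 1.83 (SE 0.21, edgeR adjusted p = 0.0088). The muscle genes atp2a1, tpma and both genes named myl11 were called as lower there and rested on single wells. The top well held 950 of 1090 UMIs of atp2a1, 1443 of 1946 of tpma, and 652 of 704 and 1324 of 1504 of the myl11 genes.

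The genes most like ccl34b.8 over the 593 wells had weaker correlations than those of ccl34b.1. They were anxa2, which binds membranes in the presence of calcium (0.34), si:dkey-6n3.3 (0.31), rdh12l, of the retinol dehydrogenase family (0.31), si:dkey-119g10.4 (0.29), the galectin gene lgals9l1 (0.28), tgfbi, a matrix protein gene (0.27), ms4a17a.6 (0.26) and dicp2.1 (0.24). In mutants of day 2 alone these values ran from 0.27 to 0.49, and in mutants of day 1 from 0.08 to 0.40. Siblings, with 4 and 1 wells that held the gene, gave values from -0.11 to 0.14.

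These genes were picked by their correlation with ccl34b.8 over the same wells, so higher levels in wells with it largely restate that choice. For anxa2 the level was 145 CPM in wells with ccl34b.8 and 38.2 in wells without on day 1, and 685 and 322 CPM on day 2. That of si:dkey-119g10.4 was 1669 and 475 CPM on day 1 and 5526 and 2419 on day 2. For lgals9l1, by contrast, wells with ccl34b.8 were at 213 CPM and wells without at 231 on day 1, and at 809 and 453 CPM on day 2. Wells with ccl34b.8 were deeper, with medians of 13169 and 11443 UMIs on days 1 and 2 against 7753 and 9008. None of the 8 genes was among the 8 most like ccl34b.1, but lists this short out of 6832 genes would seldom share a member. The gene lgals9l1 was also called higher in wells with ccl34b.1 after thinning (log2 fold 1.14, SE 0.26, edgeR adjusted p = 0.0071).

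**Figure D5:**
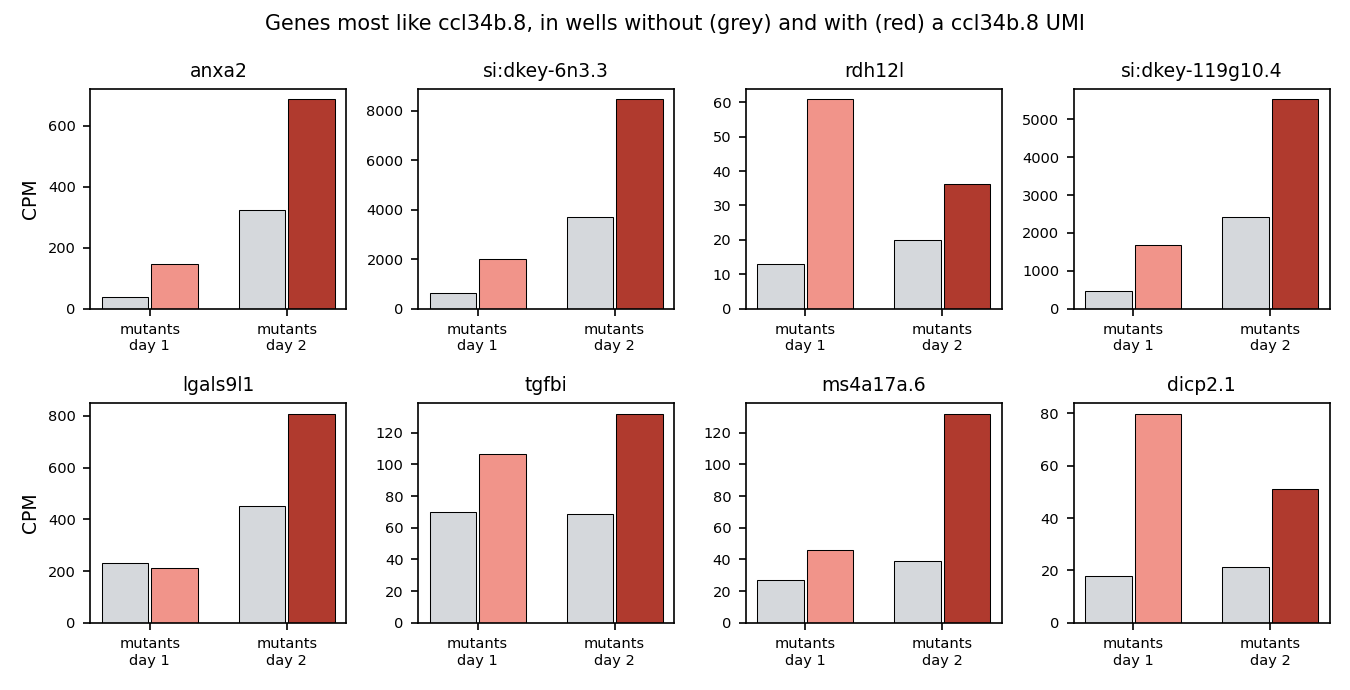
Level in CPM of the 8 genes with the highest correlation with ccl34b.8, in mutant wells without (grey) and with (red) a UMI of ccl34b.8, on each sort day; axes start at 0 and differ between genes, and there are no error bars because each bar is 1 sum over wells. Only lgals9l1 on day 1 has a higher grey bar, at 231 against 213 CPM. The genes were picked by that correlation over wells that include these, so higher red bars largely restate it.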

How the data were processed

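Expected counts per gene and well, corrected by the authors for molecules that drew the same UMI, were deposited for 3 plates. This unit was read from the values, since 100% of those above 0 became whole within 0.005 when the correction for 4096 UMI sequences was inverted. Whole UMIs were used throughout. Per the submitters' processing notes, reads were aligned with BWA to Zv9; tool versions and the counting and annotation steps were not given in the sources used here. Per the labels' protocols, all wells underwent CEL-Seq2. The labels do not say how many embryos were pooled for a plate. P-values by genotype therefore measure only the spread between pools, which may be technical. Those between wells with and without a gene, paired by pool, measure how alike the difference was across pools. In both, edgeR estimates the spread of a gene partly from all genes.

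Well numbers carry no row names and were read row by row, 24 to a row. Wells with 1000 or more UMIs were kept; no doublet caller was run on sorted wells. UMIs were summed per pool and tested with edgeR 4.0.16 in R 4.3.3 (quasi-likelihood, TMM, default filter on low counts, Benjamini-Hochberg at 0.05), by genotype without a block (sort day, as labelled, was the block of an alternative), or between wells with and without a gene, paired by pool, where each side held at least 5 wells. These fits were tested on simulated data. DESeq2 1.42.0 was an alternative, as were library totals, other filters and depth limits, thinning, and leaving out pools. Thinning was a single random draw (seed 7), so results after thinning depend on that draw. Shares and counts carry exact Clopper-Pearson and Poisson 95% intervals, which cover counting error only. SciPy 1.17.1, pandas 2.3.3 and Python 3.11.15 were used.

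The genes named are, per comparison of wells, up to 10 in each direction of largest log2 fold past the threshold, with at least 50 UMIs, a symbol and 1 direction in all pools, and the 8 genes most like each chemokine among those with a UMI in 5% of wells. Called genes of the lists, and those named beside a count of calls under the block or in ccl34b.8 wells, are also given; the latter were chosen after their values were seen. Symbols matched 17027 of 21915 IDs, which held 77.5% of the UMIs. A list member was matched by its symbol or else without its paralogue letter or suffix. The 2 chemokine genes, the lists and the rules were chosen with earlier results of these data known.

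Of 21 lists, those of erythroid, thrombocyte, mesenchyme, epidermis, endothelium and neuron markers served as checks for other cells. In wells with ccl34b.1 against wells without, 1 of 3 thrombocyte markers (fn1) and 2 of 5 epidermis markers (icn and epcam, shared with the metaphocyte list) were lower, and 0 of 1 erythroid, 0 of 4 mesenchyme, 0 of 1 endothelium and 0 of 1 neuron markers were called.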

Additional observations from a re-analysis of the deposited data

Results flagged for a closer look

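Wells with fewer than 1000 UMIs, which the report's comparisons left out, held 7 UMIs of ccl34b.8 in mutants of day 2, in 6 of 259 wells. The wells under 1000 UMIs of siblings on the same day held 0 in 185 wells. In these mutant wells, 7 of 45252 UMIs gave 155 CPM, against 118 CPM in the mutant wells kept. So few UMIs set the level only loosely. Some of these wells entered only the alternative that kept wells from 500 UMIs on. The source of these UMIs was not tested.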

How the results depend on the processing

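With 2 pools per genotype, 5 and 2 UMIs of ccl34b.8 in siblings, and 2 pools behind the ccl34b.8 wells, precision is limited by the number of pools and by depth. Of 79 alternative values, 44 stayed within 1.5 times the main count of called genes, or within the main 95% interval of a share or of a number of shared wells, which is wide for ccl34b.8 (3.05% of siblings of day 1 became 1.53% after thinning).

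By genotype, 0 genes became 24 with DESeq2 and 226 without a filter on low counts; leaving out 1 pool gave 0 to 281. With sort day as a replicate block there were 2. The labels give the pools of a sort day no more than that day and, on day 1, a shared plate. In wells with ccl34b.1, 190 genes became 79 with DESeq2, 45 with wells of 5000 or more UMIs, 493 with the gene held from 3 UMIs on, 865 after thinning and 111 in wells with a macrophage marker; leaving out 1 pool gave 61 to 108. In wells with ccl34b.8, 11 genes became 26 with library totals, 151 without a filter, 2 and 52 with wells of 2000 and 5000 or more UMIs, 3 with the gene held from 3 UMIs on, 29 in wells with a macrophage marker, 1 without the top well of each pool and 3 with the deposited values; the last 2 were chosen after seeing the data. The causes were not tested.

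Thinning moved the share of wells with ccl34b.1 to 32.8%, 23.9%, 64.3% and 32.8% (siblings and mutants of day 1, then day 2), and with ccl34b.8 to 3.62%, 0% and 8.0% (mutants of day 1, siblings and mutants of day 2). Wells that held both fell to 1, 0, 0 and 2. Keeping wells from 500 UMIs on gave 92.2% for ccl34b.1 in siblings of day 2. No test of wells with only ccl34b.8 against wells with only ccl34b.1 was run, since only mutants of day 2 had 5 wells on each side, and with 2 pools none could be left out of the ccl34b.8 comparison.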
